A study of Homo sapiens with 9 samples.

Results

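The genes described here are 55 genes of chromosome segregation: mitotic kinases, spindle checkpoint and anaphase factors, proteins of the centromere and the kinetochore, and genes of spindle assembly and cytokinesis. They were chosen as a named list of gene symbols with the kinesin motors other than CENPE left out, and all 55 were found among the 24204 symbols measured. Of these, 54 passed a filter on low values and were tested. RNA-seq libraries came from HepG2, an established human liver cancer cell line, infected with a lentivirus that carried a control short hairpin RNA (shCtrl) or either of 2 hairpins against TRIB3 (shTRIB3-1 and shTRIB3-2), with 3 libraries in each group. All 9 libraries share 48 h of infection followed by 48 h of puromycin selection, so the shCtrl cells carried the virus and the drug resistance too, and each group is a selected pool of infected cells. TRIB3 is a pseudokinase induced when amino acids run short. The study's methods describe RNA from cells deprived of glutamine, whereas the labels name high-glucose medium with serum and no withdrawal, and the study's discussion also places TRIB3 depletion in cells that kept glutamine. Glutamine-replete medium is thus the likelier, but the sources do not state it outright for these libraries.

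In mitosis, each centromere is marked by nucleosomes that contain the histone variant CENPA, and on these the inner kinetochore proteins and then the outer kinetochore proteins assemble to hold the ends of spindle microtubules. Unattached kinetochores recruit the checkpoint kinases and MAD2L1, which hold back CDC20 and the anaphase-promoting complex, while Aurora B and its partners release faulty attachments. Many of these genes are transcribed late in the cell cycle, and a repeated feature of their promoters is the cell cycle genes homology region (CHR), a short element near the transcription start that often lies a few turns of the helix from a CCAAT box.

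The hairpins' target sequences are shown because each group rests on one of them. Both are 21 bases long and lie in coding exons of TRIB3 on the plus strand of chromosome 20 (GRCh38).

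shTRIB3-1, exon 2, chr20:388072-388092: tggatgacaacttagataccg
shTRIB3-2, exon 3, chr20:391473-391493: gccgtgctcttccgccagatg

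The first matched 4 of 4 annotated TRIB3 transcripts exactly and the second 3 of 4. The longest run of bases shared with a transcript of any of the 55 genes, on either strand, was 10 for shTRIB3-1 (in NSL1 and ZWINT) and 11 for shTRIB3-2 (in ZWINT). The RNA of TRIB3 stood at 67.9, 65.8 and 66.6 FPKM in the shCtrl libraries, 34.1, 32.7 and 34.04 in shTRIB3-1 and 20.6, 20.7 and 20.4 in shTRIB3-2, expressed as FPKM, which is the fragments of a gene scaled for its length and for the total of its library. The groups did not overlap, and TRIB3 remained at 50.3% and 30.8% of its shCtrl level. It had log2 fold changes of -0.99 with shTRIB3-1 (limma adjusted p = 5.30e-11) and -1.70 with shTRIB3-2 (adjusted p = 5.39e-13), each with an SE of 0.0301. TRIB3 was lower with shTRIB3-2 than with shTRIB3-1, by a log2 fold change of -0.71 (SE 0.0301, limma adjusted p = 9.54e-09).

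Depth was 34206726 to 36311029 fragments per library. Hepatocyte character, which does not identify the HepG2 line itself, was checked with 9 hepatocyte genes, ALB and APOB among them. All stood at 26.2 FPKM or more in every library. Their summed FPKM was 8381 to 9034 in shCtrl libraries, 8601 to 9040 with shTRIB3-1 and 10815.5 to 11128.9 with shTRIB3-2. The higher sum with shTRIB3-2 was not tested. Of 7 markers of leukocytes, fibroblasts and endothelium, 6 stayed at or below 0.195 FPKM in every library, and the other, CD68, reached 38.9 FPKM. Summed over those 6, FPKM was 0.257 to 0.296 in shCtrl libraries, 0.283 to 0.305 with shTRIB3-1 and 0.259 to 0.345 with shTRIB3-2. The 13 mitochondrially encoded protein genes held 5.3 to 6.1% of the fragments of shCtrl libraries, while shTRIB3-1 libraries held 6.29 to 7.01% and shTRIB3-2 libraries 6.52 to 7.22%. The part of this shift in the results was not tested.

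Most of these genes fell with both TRIB3 hairpins, and further with shTRIB3-2 than with shTRIB3-1. Their summed level was 935 ± 8.36 FPKM in shCtrl (SD, n = 3), 339 ± 5.55 in shTRIB3-1 and 193 ± 5.37 in shTRIB3-2, which is 36.3% and 20.6% of the shCtrl sum. The mitotic kinases AURKB and PLK1, the anaphase activator CDC20 and the outer kinetochore gene NDC80 were among the deepest falls, and BUB3 and MIS12 among the smallest changes. In RNA from whole cultures, fewer cells in mitosis and less RNA per cell cannot be told apart.

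The count of genes called lower was 41 of 54 (75.9%) with shTRIB3-1 and 46 of 54 (85.2%) with shTRIB3-2, where a call needs an adjusted p under 0.05 in limma and a log2 fold change below -1. Among all 11265 tested symbols, 6.1% were called lower with shTRIB3-1 and 6.27% with shTRIB3-2. Without the limit on size, 53 of 54 fell at an adjusted p under 0.05 with shTRIB3-1, and 53 of 54 with shTRIB3-2, against 41.5% and 40.5% of all tested symbols. In 53 genes with shTRIB3-1 and 53 with shTRIB3-2, every knockdown library was below every shCtrl library, against 43% and 41.3% of all symbols. None was called higher with either hairpin by limma or by voom on fragment counts, and none was higher at an unadjusted p under 0.05 in either method, whereas 5.39% and 6.06% of all symbols were called higher. The median log2 fold change was -1.58 with shTRIB3-1 and -2.66 with shTRIB3-2, beside -0.06 and -0.03 over all tested symbols.

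shTRIB3-2 was also compared directly with shTRIB3-1. Of the 54 genes, 31 (57.4%) were called lower with shTRIB3-2 than with shTRIB3-1, against 1.79% of all symbols, and the median log2 difference was -1.11, beside 0.03. At an adjusted p under 0.05 of any size, 50 were lower (20.7% of all symbols) and 2 higher, BUB3 and MIS12 (25.1% of all symbols), with none past the size limit in limma or voom (0.284% of all symbols). Every shTRIB3-2 library was below every shTRIB3-1 library in 50 genes, against 24.4% of all symbols. The count of 31 depends on the pseudocount of 0.1 FPKM added before taking logs, and is 9 with a pseudocount of 1. The 3 comparisons share libraries, so they are not independent of each other.

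Of the 54 tested genes, 34 stood at 1 FPKM or more in all 9 libraries, whereas SGO1, CENPK and SPC24 reached that level in shCtrl only and so could only have passed the filter by being higher there. CENPP, a subunit of the inner kinetochore, was the gene that did not pass. It stood at 0.481, 0.497 and 0.525 FPKM in the shCtrl libraries, 0.186, 0.169 and 0.172 in shTRIB3-1 and 0.153, 0.0901 and 0.127 in shTRIB3-2, and its fragments ran from 181, 190 and 198 in shCtrl to 55, 33 and 47 in shTRIB3-2. In a fit of all 24204 symbols with no filter, 42 of the 55 genes were called lower with shTRIB3-1, 47 with shTRIB3-2 and 31 between the hairpins. CENPP was called lower with each hairpin in that fit, with log2 fold changes of -1.12 (limma adjusted p = 0.000267) and -1.44 (adjusted p = 5.2e-05).

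Some levels are less certain because of shared sequence. AURKA, CDC20, MAD2L1, SKA2 and UBE2S have copies of at least 95% identity over 200 bases in other annotated genes, and SPC25 shares stretches of that identity, of up to 476 bases, with 8. Genes on the opposite strand cover 12.8% of the exon bases of PLK1, 15.8% of SGO1, 14.9% of CENPU, 10.5% of CENPN and 34.3% of PRC1, and genes on the same strand cover 10.2% of BUB1B and 12.6% of CENPN. The larger overlaps of OIP5, NUSAP1, CENPO and CENPP are given with those genes.

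**Figure D1:**
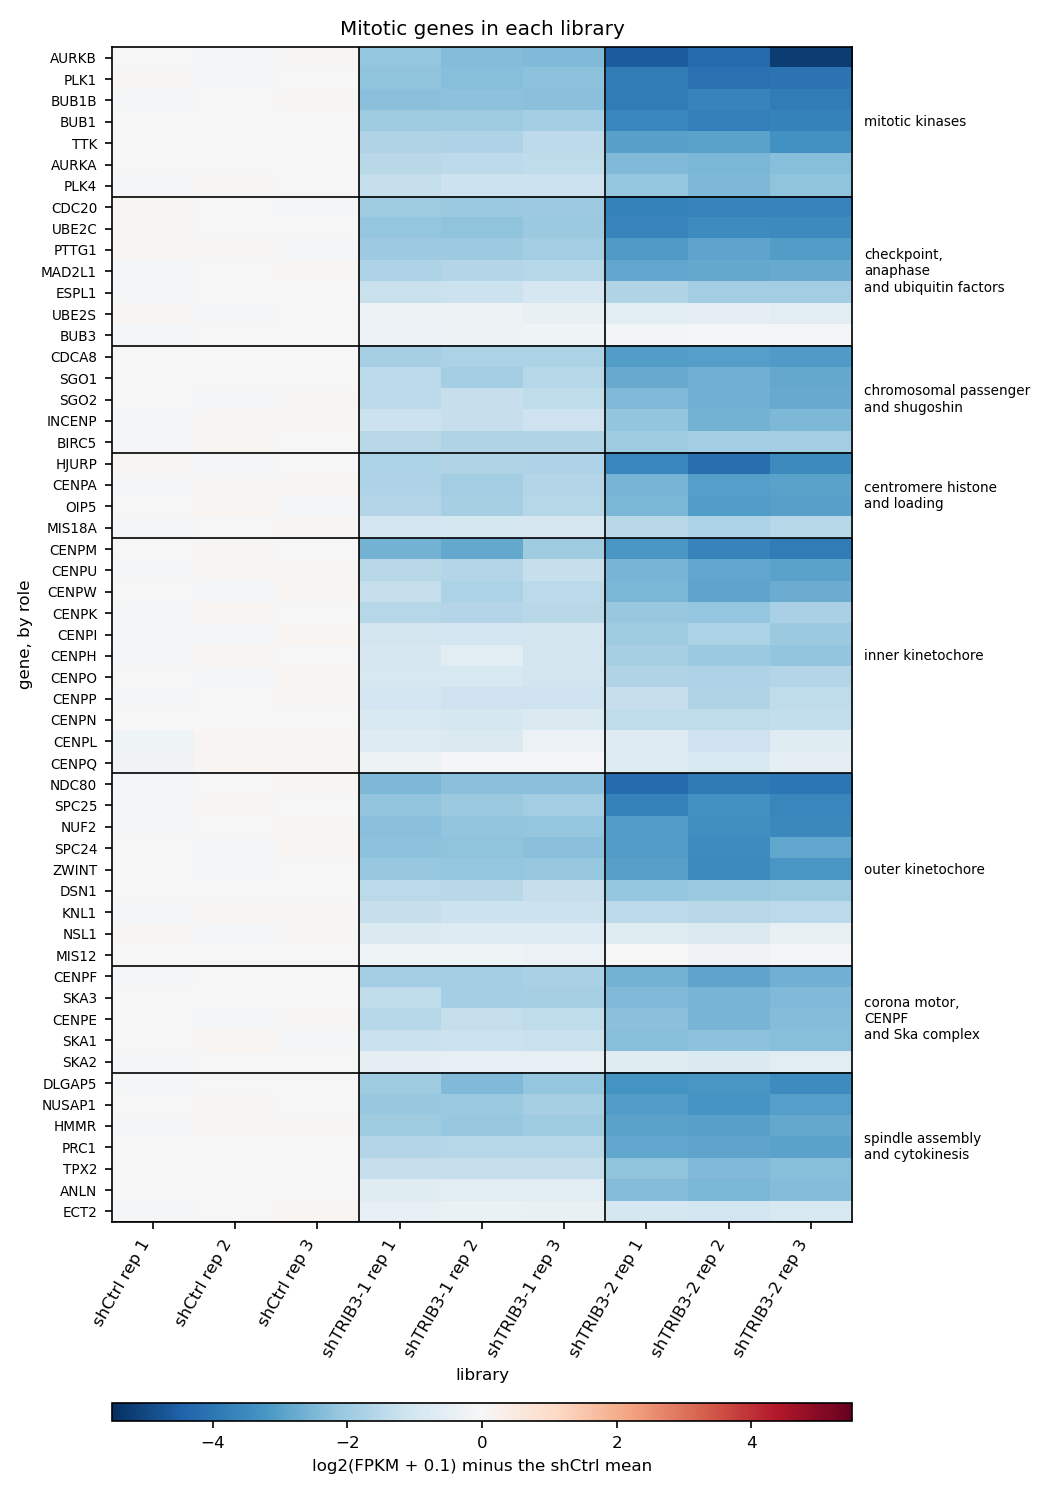
Level of each of the 55 genes in each library. Rows are genes in 8 role groups, columns the 9 libraries, and colour is log2(FPKM + 0.1) minus the mean of the 3 shCtrl libraries, so blue is lower than shCtrl. The 3 shTRIB3-2 columns are the darkest in nearly every row, and the rows of BUB3 and MIS12 stay pale across all 9.

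The mitotic kinases phosphorylate spindle, centrosome and kinetochore proteins and drive the checkpoint. All 7 were called lower with both hairpins, with log2 fold changes from -2.32 to -1.23 for shTRIB3-1 and from -4.67 to -2.27 for shTRIB3-2. AURKB, the catalytic kinase of the chromosomal passenger complex, stood at 14.95, 14.1 and 15.7 FPKM in the shCtrl libraries, 3.32, 2.75 and 2.66 in shTRIB3-1 and 0.529, 0.698 and 0.306 in shTRIB3-2. Its levels in shTRIB3-2 rest on 32, 43 and 19 fragments. AURKB had log2 fold changes of -2.32 with shTRIB3-1 (limma adjusted p = 2.57e-07) and -4.67 with shTRIB3-2 (adjusted p = 3.93e-10), each with an SE of 0.188, and its difference between the hairpins of -2.35 (SE 0.188, limma adjusted p = 1.47e-06) was the largest of the 54 genes.

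PLK1, the Polo kinase of mitotic entry, spindle assembly and anaphase, stood at 73.7, 68.7 and 70.2 FPKM in the shCtrl libraries, 15.2, 13.97 and 14.97 in shTRIB3-1 and 4.76, 4.06 and 4.18 in shTRIB3-2. It was left at 20.8% and 6.12% of its shCtrl level, with log2 fold changes of -2.26 with shTRIB3-1 (limma adjusted p = 1.54e-11) and -4.003 with shTRIB3-2 (adjusted p = 1.36e-13), each with an SE of 0.0585. The smallest fall among the kinases was in PLK4, which starts centriole duplication. PLK4 stood at 6.01, 6.54 and 6.46 FPKM in the shCtrl libraries, 2.52, 2.70 and 2.73 in shTRIB3-1 and 1.36, 1.06 and 1.29 in shTRIB3-2, with log2 fold changes of -1.23 with shTRIB3-1 (limma adjusted p = 1.05e-07) and -2.27 with shTRIB3-2 (adjusted p = 3.37e-10), each with an SE of 0.0898. The checkpoint kinases BUB1, BUB1B (a pseudokinase that inhibits CDC20) and TTK, which starts checkpoint signalling, and the spindle pole kinase AURKA lay between AURKB and PLK4. Mean levels over shCtrl, shTRIB3-1 and shTRIB3-2 were 20.9, 5.36 and 1.53 FPKM for BUB1, 12.7, 2.53 and 0.827 FPKM for BUB1B, 6.54, 2.09 and 0.691 FPKM for TTK and 51.9, 18.7 and 9.65 FPKM for AURKA. Log2 fold changes with shTRIB3-1 and shTRIB3-2 were -1.94 and -3.69 for BUB1, -2.29 and -3.79 for BUB1B, -1.60 and -3.08 for TTK and -1.46 and -2.42 for AURKA. No library of one group overlapped another group in any of the 7 kinases.

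Among the checkpoint, anaphase and ubiquitin factors, 5 of 7 were called lower with each hairpin, and BUB3 and UBE2S were not. CDC20, the activator of the anaphase-promoting complex that the checkpoint blocks, stood at 62.8, 60.9 and 58.1 FPKM in the shCtrl libraries, 15.5, 14.8 and 14.9 in shTRIB3-1 and 4.503, 4.58 and 4.65 in shTRIB3-2. Its log2 fold changes were -1.998 with shTRIB3-1 (limma adjusted p = 2.18e-12) and -3.70 with shTRIB3-2 (adjusted p = 1.07e-14), each with an SE of 0.0394. UBE2C, the ubiquitin-conjugating enzyme that starts chains on substrates of that complex, stood at 54.5, 52.4 and 51.8 FPKM in the shCtrl libraries, 12.1, 11.3 and 12.7 in shTRIB3-1 and 4.23, 4.70 and 4.56 in shTRIB3-2. UBE2C had log2 fold changes of -2.13 with shTRIB3-1 (limma adjusted p = 8.99e-12) and -3.53 with shTRIB3-2 (adjusted p = 1.36e-13), each with an SE of 0.0509, and neither gene had overlapping groups.

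UBE2S, the enzyme that lengthens the chains UBE2C starts, stood at 15.1, 13.9 and 14.6 FPKM in the shCtrl libraries, 11.8, 11.98 and 10.98 in shTRIB3-1 and 9.64, 9.97 and 9.72 in shTRIB3-2. Its log2 fold changes were -0.32 with shTRIB3-1 (limma adjusted p = 5.21e-05) and -0.57 with shTRIB3-2 (adjusted p = 2.99e-07), each with an SE of 0.0471, so it fell with both hairpins by much less than UBE2C. BUB3, the adaptor that carries BUB1 and BUB1B to kinetochores, stood at 30.2, 31.97 and 31.5 FPKM in the shCtrl libraries, 25.2, 25.4 and 26.5 in shTRIB3-1 and 28.1, 29.5 and 29.9 in shTRIB3-2. In BUB3 these gave log2 fold changes of -0.28 with shTRIB3-1 (limma adjusted p = 2.16e-05) and -0.10 with shTRIB3-2 (adjusted p = 0.0279), each with an SE of 0.0371. The fall with shTRIB3-2 missed the adjusted p threshold under median centring (limma adjusted p = 0.307) and in voom (adjusted p = 0.0849). That fall also missed it without shCtrl replicate 2, shCtrl replicate 3 or shTRIB3-2 replicate 1 (limma adjusted p = 0.104, 0.0747 and 0.121). BUB3 was higher with shTRIB3-2 than with shTRIB3-1, by 0.18 (SE 0.0371, limma adjusted p = 0.00181).

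PTTG1 (securin, which holds separase inactive), MAD2L1 (the checkpoint protein MAD2) and ESPL1 (separase, which cuts cohesin) fell with both hairpins. Their mean levels over shCtrl, shTRIB3-1 and shTRIB3-2 were 28.96, 7.33 and 3.47 FPKM for PTTG1, 9.62, 3.08 and 1.29 FPKM for MAD2L1 and 3.90, 1.75 and 1.03 FPKM for ESPL1. Log2 fold changes with the first and second hairpin were -1.97 and -3.03 for PTTG1, -1.61 and -2.81 for MAD2L1 and -1.12 and -1.83 for ESPL1. The PTTG1 to ESPL1 ratio of FPKM was 7.45 ± 0.720 in the control libraries, 4.21 ± 0.351 with shTRIB3-1 and 3.43 ± 0.623 with shTRIB3-2 (SD, n = 3). This ratio and the others given below were chosen after the levels had been seen.

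All 5 genes of the chromosomal passenger complex and shugoshins were called lower with both hairpins. CDCA8 (borealin), which joins INCENP and BIRC5 to the centromere, stood at 21.7, 22.05 and 21.2 FPKM in the shCtrl libraries, 6.12, 6.39 and 6.32 in shTRIB3-1 and 2.48, 2.58 and 2.42 in shTRIB3-2. CDCA8 had log2 fold changes of -1.77 with shTRIB3-1 (limma adjusted p = 1.63e-11) and -3.07 with shTRIB3-2 (adjusted p = 1.78e-13), each with an SE of 0.0464. SGO1, which protects cohesin at centromeres, stood at 2.03, 2.11 and 2.09 FPKM in the shCtrl libraries, 0.679, 0.492 and 0.638 in shTRIB3-1 and 0.216, 0.247 and 0.211 in shTRIB3-2. SGO1 had log2 fold changes of -1.64 with shTRIB3-1 (limma adjusted p = 5.32e-07) and -2.74 with shTRIB3-2 (adjusted p = 4.03e-09), each with an SE of 0.143, and its groups did not overlap. With a pseudocount of 1 the change with shTRIB3-1 is -0.94, which misses the size limit.

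BIRC5 (survivin), the subunit that brings the complex to centromeric chromatin, had the smallest mean fall of the 5 over both hairpins. BIRC5 stood at 51.4, 59.5 and 54.3 FPKM in the shCtrl libraries, 19.1, 17.4 and 17.5 in shTRIB3-1 and 14.3, 14.9 and 14.4 in shTRIB3-2. Its log2 fold changes were -1.61 with shTRIB3-1 (limma adjusted p = 1.15e-10) and -1.91 with shTRIB3-2 (adjusted p = 2.06e-11), each with an SE of 0.0541. Between the hairpins it differed by -0.31 (SE 0.0541, limma adjusted p = 0.000656), while AURKB differed by -2.35, CDCA8 by -1.30 and INCENP, the scaffold that activates AURKB, by -1.22. The ratio of BIRC5 to AURKB was 3.70 ± 0.437 in the control libraries, 6.22 ± 0.410 with shTRIB3-1 and 31.8 ± 13.5 with shTRIB3-2, and that of BIRC5 to CDCA8 was 2.54 ± 0.167 in the control libraries, 2.87 ± 0.221 with shTRIB3-1 and 5.83 ± 0.107 with shTRIB3-2. BIRC5 to INCENP was 8.73 ± 0.384 in the control libraries, 6.66 ± 0.480 with shTRIB3-1 and 13.4 ± 2.56 with shTRIB3-2. That ratio was thus lower with shTRIB3-1 and higher with shTRIB3-2. With shTRIB3-1 alone, INCENP and SGO2 fell less than BIRC5. INCENP and SGO2, the second shugoshin, had mean levels of 6.31, 2.71 and 1.11 FPKM and 4.12, 1.54 and 0.593 FPKM in the 3 groups, and log2 fold changes of -1.19 and -2.42 for INCENP and -1.37 and -2.61 for SGO2.

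**Figure D2:**
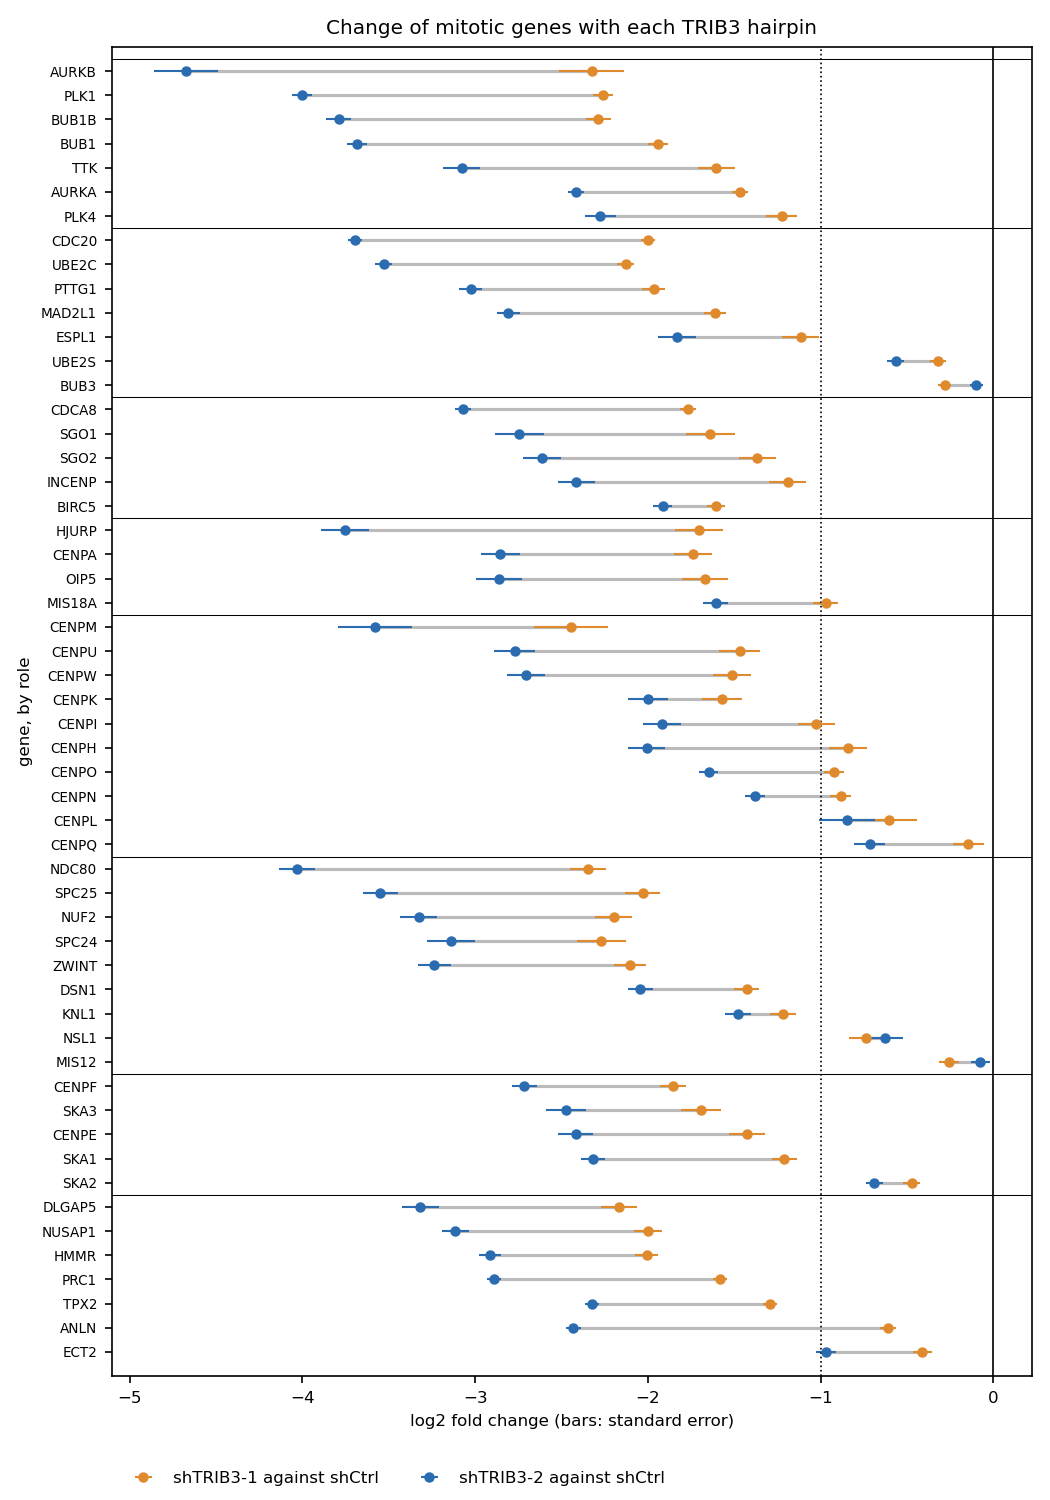
Log2 fold change of each tested gene against shCtrl with shTRIB3-1 (orange) and shTRIB3-2 (blue), with standard errors as bars, in 8 role groups separated by lines. The dotted line marks -1. The blue point lies left of the orange one except in BUB3, MIS12 and NSL1, and the gap is widest for AURKB.

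The 4 genes of the centromeric histone and its loading machinery all fell. CENPA, the histone variant, stood at 17.6, 20.1 and 20.1 FPKM in the shCtrl libraries, 5.87, 5.04 and 6.21 in shTRIB3-1 and 3.14, 2.28 and 2.38 in shTRIB3-2, with log2 fold changes of -1.74 with shTRIB3-1 (limma adjusted p = 3.20e-08) and -2.85 with shTRIB3-2 (adjusted p = 3.05e-10), each with an SE of 0.112. HJURP, the chaperone that delivers CENPA to centromeres, stood at 11.5, 10.6 and 10.9 FPKM in the shCtrl libraries, 3.18, 3.45 and 3.30 in shTRIB3-1 and 0.824, 0.519 and 0.875 in shTRIB3-2. HJURP had log2 fold changes of -1.70 with shTRIB3-1 (limma adjusted p = 2.47e-07) and -3.75 with shTRIB3-2 (adjusted p = 1.63e-10), each with an SE of 0.137, and its difference between the hairpins was -2.05 (SE 0.137, limma adjusted p = 3.44e-07). The ratio of CENPA to HJURP was 1.75 ± 0.193 in the control libraries, 1.73 ± 0.232 with shTRIB3-1 and 3.64 ± 0.847 with shTRIB3-2, so it overlapped between shCtrl and shTRIB3-1 and was higher in every shTRIB3-2 library.

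MIS18A, a subunit of the complex that licenses CENPA loading, had the smallest fall of the 4. It stood at 8.67, 9.10 and 9.97 FPKM in the shCtrl libraries, 4.43, 4.73 and 4.84 in shTRIB3-1 and 3.11, 2.72 and 3.06 in shTRIB3-2. MIS18A had log2 fold changes of -0.97 with shTRIB3-1 (limma adjusted p = 1.05e-07) and -1.61 with shTRIB3-2 (adjusted p = 9.19e-10), each with an SE of 0.0711, so it was called lower with shTRIB3-2 but missed the size limit with shTRIB3-1, which it passed without shCtrl replicate 1 (-1.02) or after rescaling to TPM (-1.03). OIP5, the partner of MIS18A, had mean levels of 12.6, 3.91 and 1.67 FPKM in the 3 groups and log2 fold changes of -1.67 and -2.86. In GENCODE v44, 92.5% of the exon bases of OIP5 are covered by genes on the opposite strand, and whether the counting used strand is not stated, so its reads cannot be told from theirs.

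The inner kinetochore genes encode the CCAN, the protein network that binds CENPA chromatin. Of 10 tested, 5 were called lower with shTRIB3-1 and 8 with shTRIB3-2, with a median of -0.98 and -1.96. CENPM stood at 5.001, 5.23 and 4.90 FPKM in the shCtrl libraries, 0.753, 0.637 and 1.24 in shTRIB3-1 and 0.464, 0.299 and 0.254 in shTRIB3-2. CENPM had log2 fold changes of -2.44 with shTRIB3-1 (limma adjusted p = 5.32e-07) and -3.58 with shTRIB3-2 (adjusted p = 1.40e-08), each with an SE of 0.214. Its shTRIB3-2 levels rest on 32, 21 and 18 fragments. CENPU, which helps recruit PLK1 to the centromere, stood at 6.14, 6.87 and 6.95 FPKM in the shCtrl libraries, 2.26, 2.08 and 2.70 in shTRIB3-1 and 1.06, 0.836 and 0.786 in shTRIB3-2, and its log2 fold changes were -1.47 with shTRIB3-1 (limma adjusted p = 2.56e-07) and -2.77 with shTRIB3-2 (adjusted p = 6.87e-10), each with an SE of 0.118.

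CENPL and CENPQ were called lower with neither hairpin. CENPL, which forms a pair with CENPN that contacts the CENPA nucleosome, stood at 1.86, 2.37 and 2.37 FPKM in the shCtrl libraries, 1.31, 1.21 and 1.75 in shTRIB3-1 and 1.28, 0.930 and 1.35 in shTRIB3-2. CENPL had log2 fold changes of -0.60 with shTRIB3-1 (limma adjusted p = 0.00517) and -0.85 with shTRIB3-2 (adjusted p = 0.000471), each with an SE of 0.163, and the difference between hairpins did not pass the test (limma adjusted p = 0.245). CENPQ, a partner of CENPU, stood at 7.49, 8.98 and 8.98 FPKM in the shCtrl libraries, 7.0001, 7.78 and 8.16 in shTRIB3-1 and 4.95, 4.70 and 5.72 in shTRIB3-2. CENPQ had a log2 fold change with shTRIB3-1 of -0.15 (SE 0.0898, limma adjusted p = 0.161), and it passed the test only when shCtrl replicate 1 was left out (adjusted p = 0.03), while with shTRIB3-2 it fell by 0.72 on the log2 scale (adjusted p = 1.26e-05).

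Members of one subcomplex did not share one size of change. In the group of CENPH, CENPI, CENPK and CENPM, log2 fold changes with shTRIB3-1 and shTRIB3-2 were -0.84 and -2.01 for CENPH, -1.03 and -1.92 for CENPI, -1.57 and -2.0004 for CENPK and -2.44 and -3.58 for CENPM. In the group of CENPO, CENPQ and CENPU they were -0.92 and -1.65 for CENPO, -0.15 and -0.72 for CENPQ and -1.47 and -2.77 for CENPU. CENPN, the partner of CENPL, gave -0.88 and -1.38, and CENPW, a histone-fold protein, gave -1.51 and -2.71. Mean levels in the 3 groups were 7.82, 4.35 and 1.87 FPKM for CENPH, 2.58, 1.22 and 0.611 FPKM for CENPI, 2.96, 0.926 and 0.666 FPKM for CENPK, 8.31, 4.46 and 3.13 FPKM for CENPN, 12.8, 6.68 and 4.002 FPKM for CENPO and 14.04, 4.88 and 2.08 FPKM for CENPW. CENPH, CENPN and CENPO fell with shTRIB3-1 without reaching the size limit and were called lower with shTRIB3-2. Genes on the opposite strand cover 31.6% of the exon bases of CENPO and 43.2% of those of CENPP.

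The outer kinetochore binds microtubules through the NDC80 complex, which the MIS12 complex and KNL1 tie to the chromosome. Of 9 genes, 7 were called lower with each hairpin, and MIS12 and NSL1 were not. NDC80 stood at 10.04, 10.9 and 11.8 FPKM in the shCtrl libraries, 1.90, 2.17 and 2.14 in shTRIB3-1 and 0.481, 0.649 and 0.603 in shTRIB3-2. NDC80 had log2 fold changes of -2.35 with shTRIB3-1 (limma adjusted p = 1.30e-09) and -4.03 with shTRIB3-2 (adjusted p = 1.09e-11), each with an SE of 0.105. SPC25, which anchors the inner end of the same complex, stood at 8.32, 9.07 and 8.99 FPKM in the shCtrl libraries, 1.88, 2.09 and 2.27 in shTRIB3-1 and 0.582, 0.774 and 0.634 in shTRIB3-2, and its log2 fold changes were -2.03 with shTRIB3-1 (limma adjusted p = 3.90e-09) and -3.55 with shTRIB3-2 (adjusted p = 2.56e-11), each with an SE of 0.103. The other 2 subunits were also called lower, with log2 fold changes of -2.20 and -3.33 for NUF2, the partner of NDC80, and -2.27 and -3.14 for SPC24, the partner of SPC25. Their mean levels in the 3 groups were 10.5, 2.21 and 0.965 FPKM and 4.60, 0.874 and 0.441 FPKM. ZWINT, which links KNL1 to the corona, stood at means of 32.4, 7.46 and 3.38 FPKM and had log2 fold changes of -2.10 and -3.24.

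Of the MIS12 complex, DSN1, MIS12 and NSL1 are among the 55, and PMF1 is on another list. MIS12 itself stood at 7.87, 7.99 and 7.99 FPKM in the shCtrl libraries, 6.79, 6.74 and 6.37 in shTRIB3-1 and 8.06, 6.96 and 7.64 in shTRIB3-2. The fitted changes of MIS12 on the log2 scale were -0.26 with shTRIB3-1 (SE 0.0567, limma adjusted p = 0.00129) and -0.08 with shTRIB3-2 (adjusted p = 0.244), where it did not pass the test. The difference between hairpins was 0.18 (SE 0.0567, limma adjusted p = 0.02), and it was lost without shTRIB3-1 replicate 3, shTRIB3-2 replicate 1 or shTRIB3-2 replicate 3 (adjusted p = 0.0776, 0.0903 and 0.0578). NSL1 stood at 3.22, 2.87 and 3.21 FPKM in the shCtrl libraries, 1.73, 1.87 and 1.84 in shTRIB3-1 and 1.89, 1.76 and 2.30 in shTRIB3-2. NSL1 had log2 fold changes of -0.74 with shTRIB3-1 (limma adjusted p = 2.89e-05) and -0.63 with shTRIB3-2 (adjusted p = 0.00011), each with an SE of 0.101, and between the hairpins it was 0.11 (SE 0.101, limma adjusted p = 0.392), which did not pass. DSN1, whose phosphorylation by Aurora B strengthens binding to the inner kinetochore, had mean levels of 15.5, 5.70 and 3.68 FPKM in the 3 groups and log2 fold changes of -1.43 and -2.04, so that the DSN1 to MIS12 ratio of FPKM was 1.95 ± 0.0690 in the control libraries, 0.862 ± 0.121 with shTRIB3-1 and 0.489 ± 0.0551 with shTRIB3-2. PMF1 stood at 8.76, 7.56 and 6.01 FPKM in the shCtrl libraries, 3.47, 4.45 and 4.70 in shTRIB3-1 and 4.61, 3.48 and 4.76 in shTRIB3-2, with log2 fold changes of -0.80 and -0.78. KNL1, the platform for BUB1 and BUB3, fell with both hairpins, with log2 fold changes of -1.22 and -1.48 from mean levels of 5.05, 2.11 and 1.75 FPKM, and the difference between them was -0.26 (SE 0.0759, limma adjusted p = 0.0151).

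The corona motor CENPE, the large coiled-coil protein CENPF and the Ska complex, which keeps kinetochores on shrinking microtubule ends, gave 4 of 5 calls with each hairpin. CENPF stood at 12.6, 13.2 and 13.3 FPKM in the shCtrl libraries, 3.41, 3.49 and 3.70 in shTRIB3-1 and 2.04, 1.68 and 1.99 in shTRIB3-2, and its log2 fold changes were -1.85 with shTRIB3-1 (limma adjusted p = 4.84e-10) and -2.71 with shTRIB3-2 (adjusted p = 1.58e-11), each with an SE of 0.0740. SKA3 stood at 4.995, 4.99 and 5.10 FPKM in the shCtrl libraries, 1.85, 1.32 and 1.34 in shTRIB3-1 and 0.844, 0.780 and 0.842 in shTRIB3-2, and its log2 fold changes were -1.69 with shTRIB3-1 (limma adjusted p = 5.60e-08) and -2.48 with shTRIB3-2 (adjusted p = 1.48e-09), each with an SE of 0.116. SKA2, in the same complex, was the exception. Its levels were 17.2, 17.9 and 18.1 FPKM in the shCtrl libraries, 12.4, 12.9 and 13.03 in shTRIB3-1 and 11.02, 10.2 and 11.6 in shTRIB3-2. SKA2 had log2 fold changes of -0.47 with shTRIB3-1 (limma adjusted p = 2.48e-06) and -0.69 with shTRIB3-2 (adjusted p = 6.65e-08), each with an SE of 0.0488, so it fell without reaching the size limit. SKA1 had log2 fold changes of -1.21 and -2.32 from mean levels of 7.07, 2.99 and 1.34 FPKM, and the SKA2 to SKA1 ratio was 2.52 ± 0.199 in the control libraries, 4.26 ± 0.162 with shTRIB3-1 and 8.22 ± 0.851 with shTRIB3-2. CENPE had log2 fold changes of -1.43 and -2.42 from mean levels of 4.24, 1.52 and 0.713 FPKM.

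**Figure D3:**
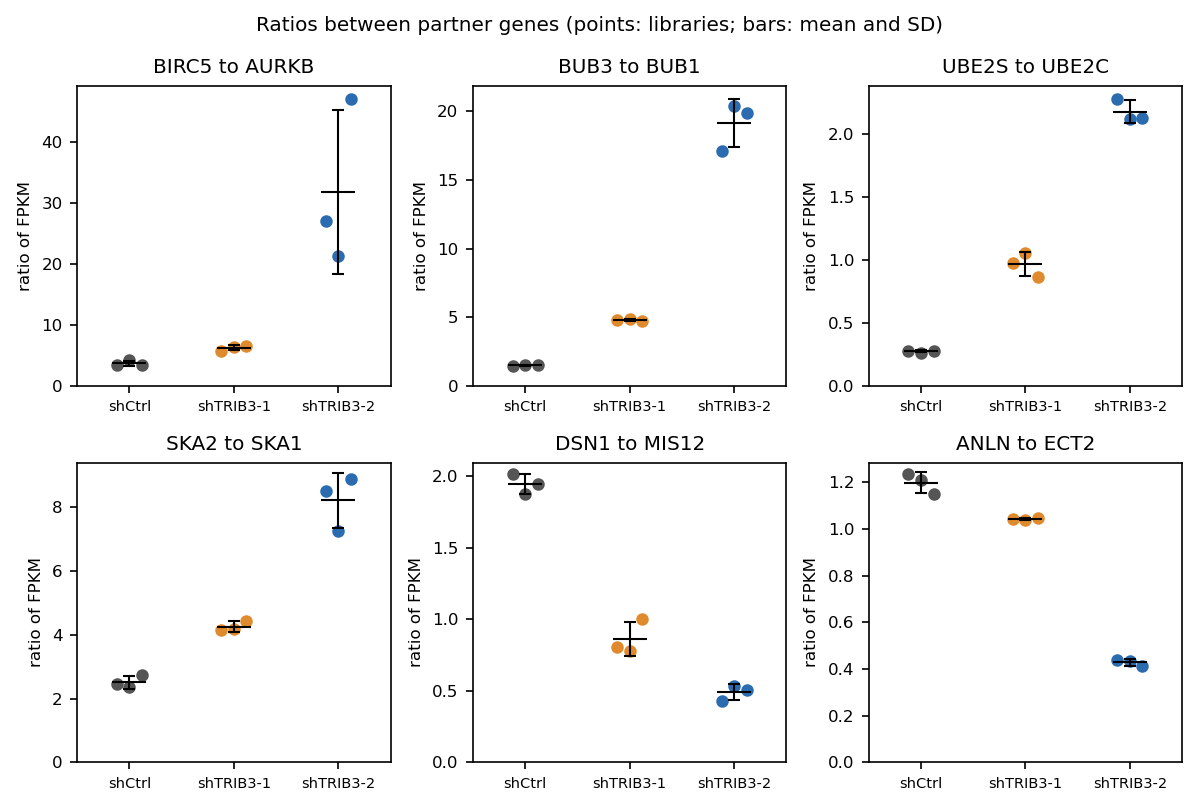
Ratio of FPKM between 2 genes that work together, in each library (points), with the mean and SD of each group (black). Each axis starts at 0. The groups do not overlap in any of the 6 ratios, and the ratio of BIRC5 to AURKB varies most among the shTRIB3-2 libraries, where AURKB has few fragments.

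The ratio of BUB3 to BUB1 was 1.497 ± 0.0333 in the control libraries, 4.79 ± 0.0697 with shTRIB3-1 and 19.1 ± 1.75 with shTRIB3-2, and that of UBE2S to UBE2C was 0.275 ± 0.00866 in the control libraries, 0.968 ± 0.0947 with shTRIB3-1 and 2.18 ± 0.0893 with shTRIB3-2. By contrast, some other partners moved less against each other. SKA3 to SKA1 was 0.714 ± 0.0592 in the control libraries, 0.503 ± 0.103 with shTRIB3-1 and 0.617 ± 0.0548 with shTRIB3-2. NDC80 to NUF2 was 1.04 ± 0.0439 in the control libraries, 0.936 ± 0.0242 with shTRIB3-1 and 0.621 ± 0.182 with shTRIB3-2. Neither ratio stayed level, since in both every knockdown library was below every shCtrl library. These ratios compare levels per base of gene length within a library and were not tested.

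Among the genes of spindle assembly and cytokinesis, 5 of 7 were called lower with shTRIB3-1 and 6 with shTRIB3-2. DLGAP5 (HURP), which stabilises microtubules near chromosomes, stood at 11.5, 12.1 and 12.05 FPKM in the shCtrl libraries, 2.98, 2.14 and 2.65 in shTRIB3-1 and 1.11, 1.19 and 0.999 in shTRIB3-2. DLGAP5 had log2 fold changes of -2.17 with shTRIB3-1 (limma adjusted p = 2.68e-09) and -3.32 with shTRIB3-2 (adjusted p = 5.52e-11), each with an SE of 0.106. NUSAP1, which bundles spindle microtubules, stood at 20.8, 22.5 and 20.96 FPKM in the shCtrl libraries, 4.93, 5.08 and 5.88 in shTRIB3-1 and 2.46, 2.15 and 2.57 in shTRIB3-2, and its log2 fold changes were -1.999 with shTRIB3-1 (limma adjusted p = 4.40e-10) and -3.11 with shTRIB3-2 (adjusted p = 8.25e-12), each with an SE of 0.0789. Other annotated genes cover 86.8% of the exon bases of NUSAP1 on its own strand, so its reads may be shared with them. HMMR, TPX2 (which activates AURKA) and PRC1 (which bundles the midzone) fell from mean shCtrl levels of 19.7, 62.7 and 32.5 FPKM, with log2 fold changes of -2.01 and -2.91 for HMMR, -1.29 and -2.32 for TPX2 and -1.58 and -2.89 for PRC1. A readthrough gene covers 57.6% of the exon bases of PRC1 on its strand.

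The cytokinesis genes ANLN and ECT2 fell least of these 7 with shTRIB3-1. ANLN (anillin), the scaffold of the contractile ring, stood at 22.4, 22.9 and 23.4 FPKM in the shCtrl libraries, 14.6, 15.3 and 14.95 in shTRIB3-1 and 4.30, 3.95 and 4.26 in shTRIB3-2. ANLN had log2 fold changes of -0.61 with shTRIB3-1 (limma adjusted p = 9.56e-08) and -2.43 with shTRIB3-2 (adjusted p = 6.38e-13), each with an SE of 0.0443. Its difference between the hairpins, -1.82 (SE 0.0443, limma adjusted p = 7.73e-11), was among the 3 largest with those of AURKB and HJURP. ECT2, the exchange factor that switches on RhoA at the cell equator, stood at 18.1, 18.9 and 20.4 FPKM in the shCtrl libraries, 14.03, 14.8 and 14.3 in shTRIB3-1 and 9.78, 9.08 and 10.3 in shTRIB3-2. ECT2 had log2 fold changes of -0.41 with shTRIB3-1 (limma adjusted p = 2.65e-05) and -0.97 with shTRIB3-2 (adjusted p = 9.64e-09), each with an SE of 0.0556, just short of the size limit with shTRIB3-2, which it passed without shCtrl replicate 1 or shTRIB3-2 replicate 3 (both -1.01). The ratio of ANLN to ECT2 was 1.20 ± 0.0450 in the control libraries, 1.04 ± 0.00538 with shTRIB3-1 and 0.429 ± 0.0150 with shTRIB3-2.

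**Figure D4:**
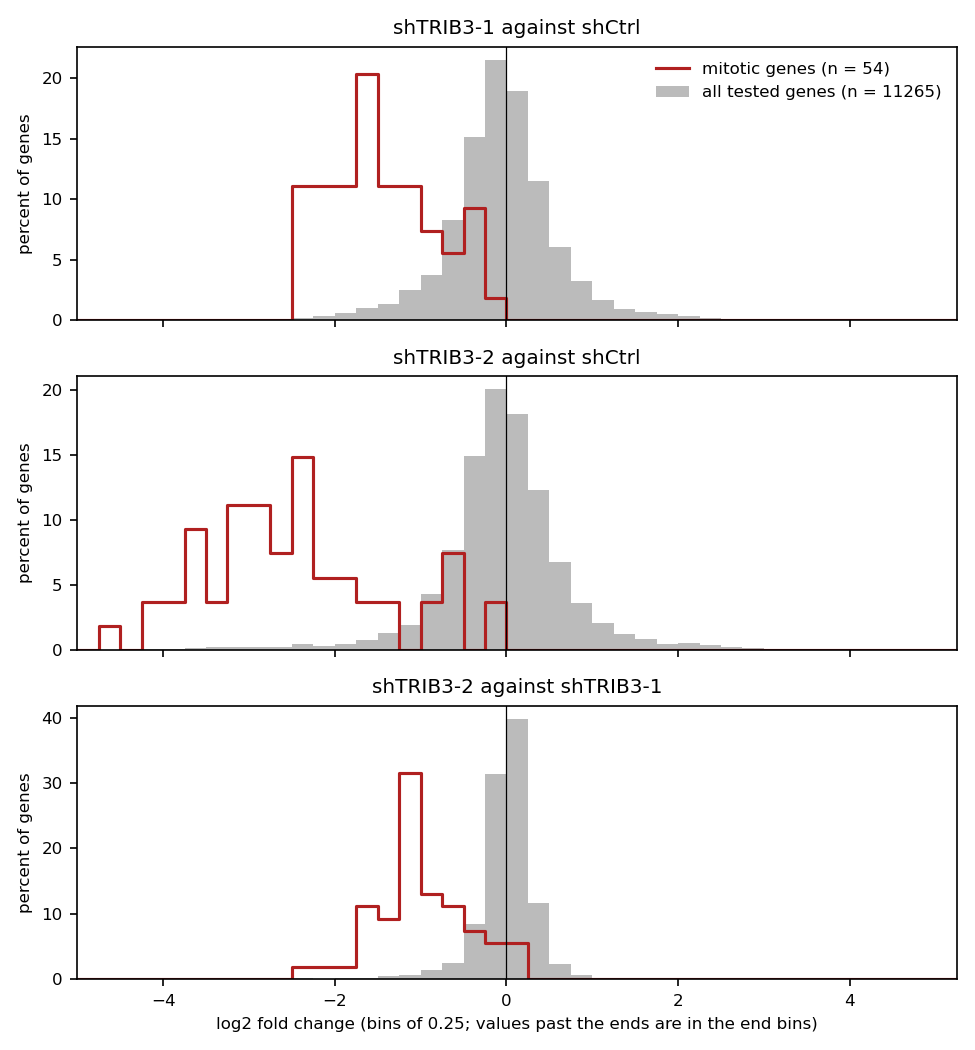
Distribution of log2 fold changes in each of the 3 comparisons, for all 11265 tested symbols (grey bars) and for the 54 tested mitotic genes (red line), as percent of genes per bin of 0.25. The grey bars include the 54 genes, so the red line cannot pass their range. It is centred to the left of them, with medians of -1.58, -2.66 and -1.11 against -0.06, -0.03 and 0.03. With shTRIB3-2, AURKB (-4.67) is the lowest of all 11265 tested symbols.

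Other genes of mitosis were taken from 5 lists that do not hold the 55. Of 83 tested, 26 were called lower with shTRIB3-1 (31.3%), 35 with shTRIB3-2 (42.2%) and 11 between the hairpins (13.3%). The shares of all tested symbols were 6.1%, 6.27% and 1.79%. The medians of the 83 were -0.54, -0.70 and -0.20. Of the mitotic entry genes, 11 and 12 of 16 were called lower, and their medians of -1.77 and -2.89 were deeper than the -1.58 and -2.66 of the 55. CCNA2 (cyclin A2) was the lowest of them on the mean of both hairpins, at 34.9, 33.2 and 34.9 FPKM in the shCtrl libraries, 5.78, 5.57 and 5.63 in shTRIB3-1 and 3.70, 2.82 and 3.76 in shTRIB3-2, and WEE1, the kinase that restrains CDK1, was the highest, at 13.7, 14.01 and 13.4 FPKM in the shCtrl libraries, 22.4, 22.02 and 22.6 in shTRIB3-1 and 21.1, 20.03 and 21.3 in shTRIB3-2. Log2 fold changes were -2.58 and -3.30 for CCNA2 and 0.70 and 0.60 for WEE1, which rose with both hairpins.

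The anaphase-promoting complex, which CDC20 activates, showed small changes. Of 16 genes on its list, 10 fell at an adjusted p under 0.05 with shTRIB3-1 and 9 with shTRIB3-2. Among all tested symbols, 41.5% and 40.5% did so. The medians of the list were -0.23 and -0.17. A single gene (6.25% of the list) was called lower with each hairpin, near the 6.1% and 6.27% of all tested symbols. It was FBXO5 (EMI1), which is an inhibitor of the complex rather than a subunit, and its log2 fold changes were -1.32 and -1.73. CDC16, a subunit, was the highest on the mean of both hairpins, with 0.504 and 0.48. Of 14 PP1 and PP2A phosphatase subunits, which reverse mitotic phosphorylation, 1 (7.14%) was called lower with each hairpin, also near the share of all tested symbols. The counts called higher were 1 and 2, where all tested symbols gave 5.39% and 6.06%. On the mean of both hairpins the lowest was PPP1CB (-1.15 and -1.05) and the highest PPP2CB (1.02 and 1.25).

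Of 16 other kinetochore and checkpoint genes, 4 (25%) were called lower with shTRIB3-1 and 8 (50%) with shTRIB3-2. Among all tested symbols, 6.1% and 6.27% were. On the mean of both hairpins the range ran from SPAG5 (astrin), with -2.18 and -3.38, to MAD2L1BP, which helps take the checkpoint apart, with 0.34 and 0.37. Of 21 other spindle, centrosome and cytokinesis genes, 9 (42.9%) and 13 (61.9%) were called lower, and on the same measure they ran from TACC3, a stabiliser of spindle fibres, with -1.81 and -3.53, to HAUS2, an augmin subunit, with 0.10 and 0.37.

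Promoters were read for 44 of the 55 genes from RefSeq (GRCh38.p14), as the 250 bases before and 50 after a single annotated start per gene. A CHR was searched as TTTGAA or TTCGAA on both strands, where TTCGAA reads the same on both, and a CCAAT box as CCAAT on both strands. A CHR was present in 29 of 44 promoters (65.9%), against 11.17% of the 9088 promoters of tested symbols and 16.62% of all 27305 promoters in the table. CCAAT was present in 31 of 44 (70.45%), against 36.96% and 35.7%. Both were present in 21 of 44 (47.73%), against 4.798% and 6.581%. In the 250 bases before the start alone, 15 of 44 (34.09%) held a CHR, against 9.628% of tested symbols and 14.59% of all. The E2F-like motif GCGGGAA was present in 13.64% against 10.44% of tested symbols, and TTTCGCGC or TTTGGCGC in 6.818% against 2.168%. The promoter shares count each motif on its own, also where a CHR and a CCAAT share bases.

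The 120 bases before the start are printed for 7 genes, with CHR and CCAAT matches of either strand in capitals. The first 4 hold both motifs and fell with both hairpins. AURKB is shown because it fell furthest with shTRIB3-2, and MIS12 and SKA2 because they were called lower with neither hairpin. ECT2, not printed, was also called lower with neither, yet its window holds 2 CHR and 3 CCAAT matches. ANLN, not printed either, holds 2 CHR matches, and its log2 fold changes were -0.61 with shTRIB3-1 and -2.43 with shTRIB3-2. The printed genes thus do not represent all 44.

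PLK1, chr16:23678769-23678888, plus strand: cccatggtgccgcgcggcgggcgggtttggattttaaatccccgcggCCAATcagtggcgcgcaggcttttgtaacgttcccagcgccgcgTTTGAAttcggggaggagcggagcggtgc
CDCA8, chr1:37692396-37692515, plus strand: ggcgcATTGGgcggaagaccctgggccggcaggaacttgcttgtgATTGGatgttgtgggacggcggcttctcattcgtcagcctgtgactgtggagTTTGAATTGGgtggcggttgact
ZWINT, chr10:56361260-56361379, minus strand: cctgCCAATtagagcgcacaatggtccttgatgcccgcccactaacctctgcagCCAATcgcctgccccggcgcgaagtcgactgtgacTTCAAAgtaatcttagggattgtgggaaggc
PRC1, chr15:90994536-90994655, minus strand: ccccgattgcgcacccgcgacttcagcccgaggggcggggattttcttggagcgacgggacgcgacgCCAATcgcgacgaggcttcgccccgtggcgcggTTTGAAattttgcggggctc
AURKB, chr17:8210226-8210345, minus strand: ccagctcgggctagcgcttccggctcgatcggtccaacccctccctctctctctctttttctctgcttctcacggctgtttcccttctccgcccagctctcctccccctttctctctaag
MIS12, chr17:5486254-5486373, plus strand: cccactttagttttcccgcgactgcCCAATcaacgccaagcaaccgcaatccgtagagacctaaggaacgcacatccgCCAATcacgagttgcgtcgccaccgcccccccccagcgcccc
SKA2, chr17:59155187-59155306, minus strand: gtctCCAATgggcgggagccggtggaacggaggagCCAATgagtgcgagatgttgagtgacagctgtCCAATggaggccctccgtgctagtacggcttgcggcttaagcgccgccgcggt

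In PLK1 the CCAAT match begins 73 bases before the start and the CHR 29 bases before it. The CHR begins 31 bases before the start in ZWINT, 23 in CDCA8 and 20 in PRC1, and in CDCA8 a CCAAT match on the other strand shares bases with it, so the capitals run together. The AURKB stretch holds neither motif, and its single CCAAT match lies 153 bases before the start. In GENCODE v44 the AURKB gene extends upstream to base 8210600 of chromosome 17, so this stretch lies inside it. Sequence before any start further upstream was not read. The MIS12 and SKA2 promoters hold CCAAT but no CHR anywhere in the window searched. Of the 29 genes with a CHR, 25 were called lower with shTRIB3-1 and 28 with shTRIB3-2, and the median log2 fold changes were -1.70 and -2.86. The 14 tested genes whose promoter has none gave 9 calls with each hairpin and medians of -1.40 and -2.02, and AURKB is one of these 14. A match describes letters in a window and says nothing of binding.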

How the data were processed

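The table holds FPKM that the authors computed and deposited for 24204 symbols in 9 libraries. Its 9 columns were matched to samples by label, with 0 columns left unmapped. Per the labels and the study's methods, RNA was sequenced as paired reads, aligned to GRCh38 with STAR and counted with HTSeq. R 3.2.0 is named in the submitters' processing notes. The library kit differs between the labels and the methods, and whether counting used strand is not given in the sources used here, so overlapping and antisense genes may share reads. FPKM scales by 1 total per library and does not correct for composition.

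Symbols with FPKM of at least 1 in at least 3 libraries (11265 of 24204) were tested with limma 3.58.1 in R 4.3.3 on log2(FPKM + 0.1), with 3 group means, empirical Bayes moderation with a trend, two-sided tests and Benjamini-Hochberg adjustment over all tested symbols. The pseudocount understates changes of low genes. Calls needed an adjusted p under 0.05 and a log2 fold change beyond 1 in size. The scripts were tested on simulated data. Nothing states that libraries came from separate cultures, so p-values measure the spread between these libraries, which may be technical.

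Whole fragments were sought from the FPKM steps. Each gene was given the shortest length that put all its values within 0.02 of whole fragments. Such a length was found for 100% of 172769 values above 0, which the search itself makes likely for low genes. PTPRC and COL3A1, for example, came out with 0 fragments in every library despite values above 0. The FPKM steps also gave the library totals of 34206726 to 36311029, and the fragments served for voom as an alternative. Fragments carry no molecular identifiers. Replicates differed by more than sampling noise (chi-square per degree of freedom 3.13 to 7.54). Gene overlaps and near-identical copies (95% identity over 200 bases) were taken from GENCODE v44 and promoters from RefSeq.

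The 55 genes, the other gene lists and the alternatives were chosen with earlier results of these data known. Values in every library are given, within each role, for the 2 genes with the lowest and the 1 with the highest mean change, for genes called with neither hairpin, for the 3 lowest and 3 highest between the hairpins and for the gene below the filter.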

Additional observations from a re-analysis of the deposited data

How the results depend on the processing

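Under 18 alternatives, single genes were followed only for the 28 tested genes picked by the rule above for values in every library, not for all 54. None of their changes reversed, and 1477 of 1486 recomputed values kept their direction and their side of the adjusted p threshold. The 9 others belong to BUB3, MIS12 and CENPQ and are given with those genes. With the size limit included, 14 calls among these 28 genes were lost and 4 gained. A pseudocount of 1 lost 10: SGO1 with shTRIB3-1 and, between the hairpins, SGO1, CENPA, CENPM, CENPU, DLGAP5, NDC80, NUSAP1, PLK4 and SPC25. The other 4 losses, between the hairpins, were SGO1 after quantile normalization (-0.91), CENPM without shTRIB3-1 replicate 3 (-0.88) or shTRIB3-2 replicate 3 (-0.99), and PLK4 without shTRIB3-2 replicate 2 (-0.95). The gains were in MIS18A and ECT2. Over all 54 tested genes, a pseudocount of 1 moved the median log2 fold changes to -1.30 (shTRIB3-1), -2.09 (shTRIB3-2) and -0.74 (between the hairpins). It left 36 genes called lower with shTRIB3-1 (41 before), 46 with shTRIB3-2 (46 before) and 9 between the hairpins (31 before). A larger pseudocount shrinks changes of low genes. The median with shTRIB3-2 was -2.79 with an FPKM minimum of 5, and the median with shTRIB3-1 was -1.497 after median centring and -1.65 after rescaling to TPM, and the cause was not tested. Leaving out 1 library at a time gave medians of -1.59 to -1.48, -2.72 to -2.58 and -1.11 to -1.04, with 37 to 41, 43 to 47 and 29 to 32 genes called lower. Where the library left out was a shCtrl one, 51 genes rather than 54 passed the filter and were tested.

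The groups share replicate numbers. Deviations of same-numbered libraries correlated at -0.0742 to 0.0933, and those of other-numbered libraries at -0.0756 to 0.0479. Of 9 libraries, 6 correlated best with one of their own number, so whether the numbers pair the libraries weakly is not settled. With a replicate block, 41, 46 and 31 genes were called lower, as without it. Depth limits genes with few fragments in shTRIB3-2, such as CENPM and AURKB.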
